A study of Mus musculus with 6 samples.

Results

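The Fkbp genes described here code for 10 prolyl isomerases, Fkbp1a, Fkbp2, Fkbp3, Fkbp4, Fkbp5, Fkbp7, Fkbp9, Fkbp10, Fkbp11 and Fkbp14. Every gene probe whose annotated transcript maps to one of these symbols was taken, which gave 12 of the 39429 probes on the array. Fkbp1a and Fkbp14 had 2 probes each and the other genes had 1. All 12 probes passed the filter on dim probes, among 29905 probes that did, and the 10 genes were part of 24571 tested genes. The set was chosen by the measured levels, because Fkbp11 had the largest fall in homozygous embryos, so the homozygous values of Fkbp11 are given as a description without a test.

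Total RNA of 6 whole mouse embryos at day 12 was hybridised to 1-colour Agilent arrays, 1 embryo per array. Per the labels, 2 embryos were wild type, 2 heterozygous and 2 homozygous for a Stat3 allele named STAT3-K177K180R, in which the name gives arginine for a pair of lysines. No other allele or agent is named for any group. The study asked how this allele affects development. STAT3 is a transcription factor that cytokines activate. The labels state a shared womb for the genotypes but identify no litter or parents, so p-values measure only the spread between these samples. The extraction text of the labels speaks of tumor tissue, while every sample is labelled as an embryo. The titles and genotype labels of the wild-type group also carry the word mutant and the allele's name, and the group was read as wild type here.

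The probe level used throughout is log2 of the processed intensity minus the 75th percentile of its array. Markers of liver, red cells, neurons, neural progenitors, mesenchyme, cartilage and heart were well above background on all 6 arrays. These were 4 of 4 genes in each class, as whole embryos would give. Of 4 skeletal muscle markers, 3 were well above background in homozygous embryo 1 and 4 in the others. B and plasma cell markers were not all so in every embryo. Pancreas, trophoblast and decidua had listed markers that did not pass the filter. The arrays measured 43020 gene spots each, of which 72% to 78.3% were well above background and 0 were saturated. The 4 wild-type and heterozygous arrays were on slide 1 and both homozygous arrays on slide 2, so an effect of the slide and an effect of the homozygous genotype cannot be told apart. The homozygous arrays also had a higher median signal of negative control spots (43.5 and 48, against 26 to 27) and a lower 75th percentile (860.3 and 785.2, against 1037 to 1263). The level of a gene in a whole embryo mixes all its tissues, and fewer cells of a type and less RNA per cell cannot be told apart.

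Prolyl isomerases of the FKBP family turn the peptide bond before a proline between its cis and trans forms, a slow step in protein folding, and many bind the drugs FK506 and rapamycin. Small members act in the cytosol or nucleus, larger members with tetratricopeptide repeats join HSP90 and steroid receptors, and a secretory group works in the endoplasmic reticulum, where collagens and other secreted proteins fold. In embryos the secretory group is best known for collagen chaperones, whose loss causes brittle bones or loose joints.

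Fkbp11 codes for FKBP19, an isomerase anchored in the membrane of the endoplasmic reticulum and known from secretory tissues and plasma cells. Its gene lies on chromosome 15. The processed intensity of its probe was 1599 and 1895 in the wild-type embryos. It was 2053 and 2243 in the heterozygous embryos. It was 21.21 and 14.37 in the homozygous embryos. Both homozygous embryos were therefore far below the other 4, and the probe was well above background in homozygous embryo 1 but not in homozygous embryo 2. On the log2 scale the levels were 0.63 and 0.83, 0.79 and 0.83, and −5.34 and −5.77, in the same order of genotypes. The mean was 77.9-fold higher in wild-type than in homozygous embryos, a difference of −6.28 on the log2 scale, and 82.5-fold higher in heterozygous than in homozygous embryos, a difference of −6.37. The next lowest differences between homozygous and wild-type embryos, −5.88 and −5.45, belonged to probes without a gene name here.

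Before background subtraction the median signal of the Fkbp11 spot was 1608.5 and 1961 in wild type, 2077 and 2298.5 in heterozygous, and 68 and 65.5 in homozygous embryos. The latter pair stood above the negative control medians of the same arrays, 43.5 and 48, by little. The size of the fall therefore moved with the background correction. With a normexp correction, an offset of 50 and the same scaling it was −4.19 against wild type and −4.27 against heterozygous embryos. That offset was added to every spot and exceeded the homozygous processed intensities of 21.21 and 14.37. Such an addition by itself makes a log2 difference smaller, so these values are no offset-free estimate of the fall. Heterozygous embryos did not show such a fall. Their Fkbp11 level differed from wild type by 0.08 ± 0.18 (SE, n = 2 per genotype, limma adjusted p = 1), with a 95% interval from −0.35 to 0.51. The gene has a single probe, so no second probe could check the fall.

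The promoters of Fkbp11 and Fkbp4 are shown to give the letters around the starts of these genes. At the brightest probe of each gene they had the largest difference in each direction, homozygous against wild type. RefSeq gives Fkbp11 windows at 2 starts in GRCm38.p6, chr15:98728149-98728448 and chr15:98727578-98727877, and Fkbp4 at chr6:128438607-128438906, all on the minus strand. Each window runs from 250 bases before to 50 bases after the start. Capitals mark a match to any motif searched, and the first Fkbp11 window had no match.
Fkbp11, first start: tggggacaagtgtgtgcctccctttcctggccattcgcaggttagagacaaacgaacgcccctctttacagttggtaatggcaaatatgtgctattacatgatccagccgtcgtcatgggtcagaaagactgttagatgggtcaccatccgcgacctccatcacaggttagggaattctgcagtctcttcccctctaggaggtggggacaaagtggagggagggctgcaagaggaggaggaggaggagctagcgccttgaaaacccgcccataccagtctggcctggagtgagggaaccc
Fkbp11, second start: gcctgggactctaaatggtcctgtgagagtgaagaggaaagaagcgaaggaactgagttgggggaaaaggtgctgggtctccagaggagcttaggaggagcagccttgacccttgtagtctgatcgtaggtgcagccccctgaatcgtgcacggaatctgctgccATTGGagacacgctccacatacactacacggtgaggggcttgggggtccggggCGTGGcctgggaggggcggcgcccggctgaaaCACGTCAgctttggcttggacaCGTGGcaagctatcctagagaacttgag
Fkbp4: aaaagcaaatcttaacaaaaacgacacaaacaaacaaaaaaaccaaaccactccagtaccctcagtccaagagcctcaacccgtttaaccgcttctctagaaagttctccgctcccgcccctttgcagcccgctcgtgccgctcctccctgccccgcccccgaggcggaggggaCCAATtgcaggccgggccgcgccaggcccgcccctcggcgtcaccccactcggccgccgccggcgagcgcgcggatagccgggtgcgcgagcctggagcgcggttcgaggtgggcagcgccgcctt

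The motifs were searched on both strands in 13 windows of 9 genes, since RefSeq windows were matched for all members but Fkbp10. The second Fkbp11 window held TGACGTG, the core of the unfolded protein response element, on the opposite strand from base 1 to base 7 after the start. It was the single window of the 13 with that motif, which 2.01% of 32851 promoter windows of this length hold. The same window held CCAAT on the opposite strand from −85 to −81 and CCACG on the opposite strand at −32 to −28 and at 23 to 27. CCACG was in 7 of 13 windows (32.8% of all windows) and CCAAT in 7 of 13 (37.4% of all).

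The STAT palindromes TTCNNNGAA and TTCCNGGAA, of which the second is a special case of the first, were in 0 of the 13 windows, against 8.3% and 1.15% of all windows. Both composite endoplasmic reticulum stress elements (ERSE and ERSE-II), which contain CCAAT and CCACG, were in 0 of 13 (0.119% and 0.0365% of all). The heat shock element was in 0 of 13 (0.603% of all), the Fkbp4 window included. The glucocorticoid response element was in 1 of 13, that of Fkbp7, from −153 to −141 (0.475% of all). These counts say only which letters stand in these windows.

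**Figure D1:**
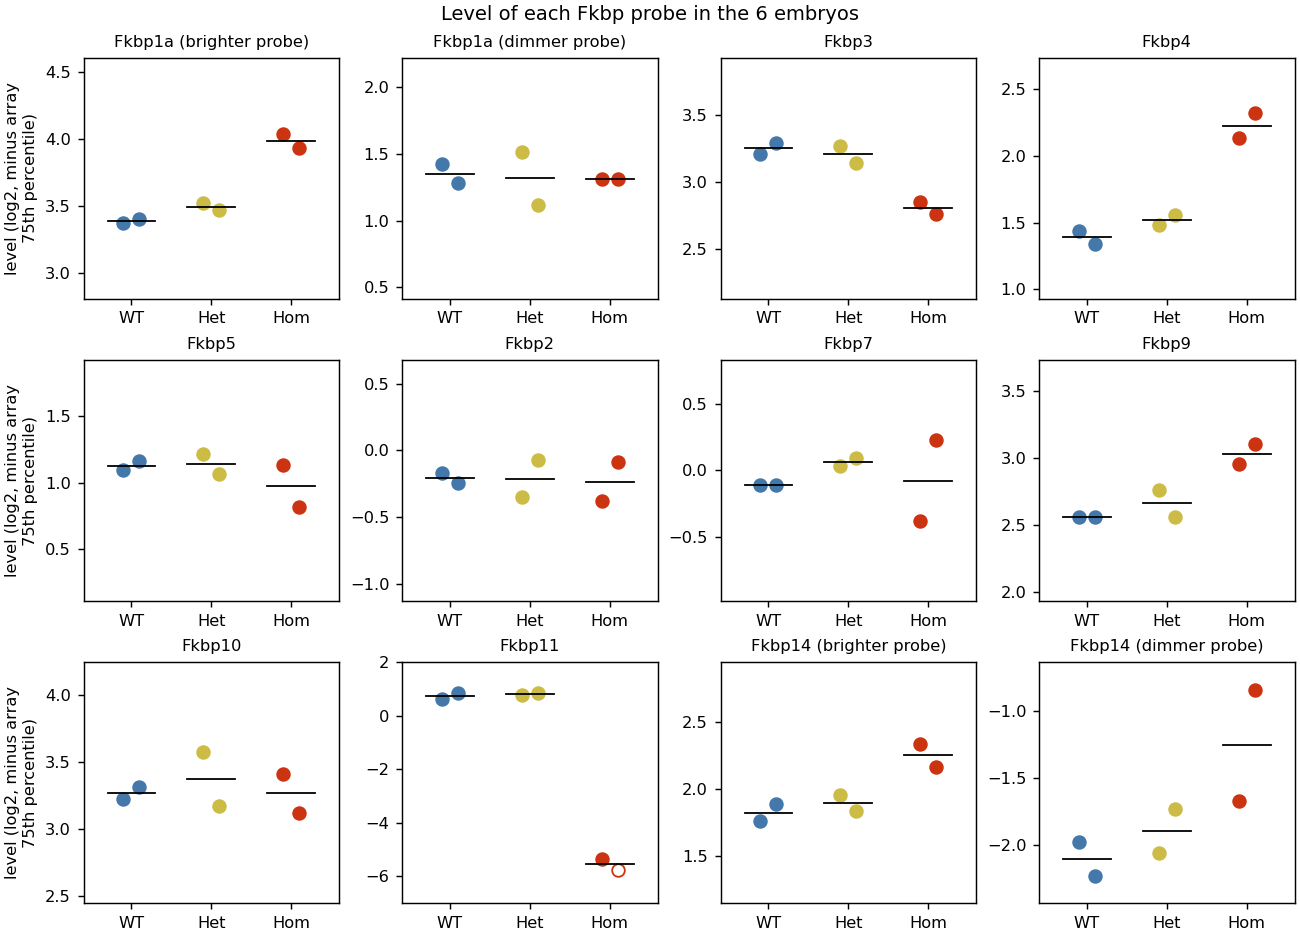
Level of each of the 12 Fkbp probes (log2 of processed intensity minus the 75th percentile of the array) in the 6 embryos, grouped as wild type (WT), heterozygous (Het) and homozygous (Hom). Points are embryos, lines are means of 2, and the open point is not well above background; the axes span the same range except for Fkbp11, whose homozygous points are at −5.34 and −5.77.

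Among the small isomerases, Fkbp1a was higher and Fkbp3 lower in homozygous than in wild-type embryos. Fkbp1a codes for FKBP12, the cytosolic receptor of FK506 and rapamycin, which also binds ryanodine receptors and the type I TGF-beta receptor. Its brighter probe read 3.37 and 3.4 in wild-type, 3.52 and 3.47 in heterozygous, and 4.04 and 3.93 in homozygous embryos. Both homozygous embryos were above all other embryos, and the heterozygous pair was above the wild-type pair. The homozygous level was 1.51-fold the wild-type level, a log2 difference of 0.6 ± 0.12 (limma adjusted p = 0.0156). The difference from heterozygous embryos was 0.49 ± 0.12 (limma adjusted p = 0.0324), and this call was lost in 7 of 16 alternative settings (limma adjusted p up to 0.13).

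The dimmer Fkbp1a probe did not follow. It read 1.42 and 1.28 in wild-type, 1.51 and 1.12 in heterozygous, and 1.31 and 1.31 in homozygous embryos, so the genotypes overlapped. Its difference between homozygous and wild-type embryos was −0.04 ± 0.17 (limma adjusted p = 0.877 over all probes). The probes of this gene disagreed by 0.64 on the log2 scale in that comparison, and which parts of the transcript they measure was not analysed here. The rise of Fkbp1a thus holds for its brighter probe alone. Without wild-type embryo 1 or 2 the brighter probe also missed the threshold (limma adjusted p = 0.115 and 0.112).

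Fkbp3 codes for FKBP25, a nuclear isomerase that binds nucleic acids. Its level was 3.21 and 3.29 in wild-type, 3.27 and 3.14 in heterozygous, and 2.85 and 2.76 in homozygous embryos. Both homozygous embryos were below the other 4, while heterozygous and wild-type levels overlapped. The homozygous level was 0.735 times the wild-type level, −0.44 ± 0.13 on the log2 scale (limma adjusted p = 0.0439). Against heterozygous embryos the difference of −0.4 ± 0.13 missed the threshold (limma adjusted p = 0.0672). The call against wild type was lost in 8 of 16 alternative settings.

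The large isomerases of the HSP90 machinery parted. Fkbp4 codes for FKBP52 and favours steroid receptor signalling. It had the largest rise of the set at the brightest probe of each gene, and Fkbp5 did not pass the test. The dimmer Fkbp14 probe, given below, rose by 0.85 against wild type. The Fkbp4 level was 1.44 and 1.34 in wild-type, 1.48 and 1.56 in heterozygous, and 2.13 and 2.32 in homozygous embryos. Both homozygous embryos stood well above the other 4, and the heterozygous pair was above the wild-type pair by about the standard error of their difference. Homozygous embryos had 1.78 times the wild-type level, 0.83 ± 0.13 on the log2 scale (limma adjusted p = 0.00766, 95% interval 0.51 to 1.16). They had 1.63 times the heterozygous level, 0.71 ± 0.13 (limma adjusted p = 0.0149). Leaving out wild-type embryo 1 or 2 ended the first call (limma adjusted p = 0.0528 and 0.0747), and leaving out heterozygous embryo 1 or 2 ended the second (limma adjusted p = 0.0909 and 0.0623).

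Fkbp5 codes for FKBP51, which restrains the glucocorticoid receptor and is itself induced by glucocorticoids. Its level was 1.09 and 1.16 in wild-type, 1.21 and 1.06 in heterozygous, and 1.13 and 0.82 in homozygous embryos. Homozygous embryo 2 was the lowest, and homozygous embryo 1 fell within the wild-type pair. The difference between homozygous and wild-type embryos was −0.15 ± 0.15 (limma adjusted p = 0.474), with a 95% interval from −0.53 to 0.22.

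Among the isomerases of the endoplasmic reticulum, Fkbp9 passed against wild type, Fkbp14 came close, and Fkbp2, Fkbp7 and Fkbp10 did not pass. Fkbp9, which has several isomerase domains, read 2.56 and 2.56 in wild-type, 2.76 and 2.56 in heterozygous, and 2.95 and 3.1 in homozygous embryos. The homozygous embryos were above the other 4. Their level was 1.38 times the wild-type level, 0.47 ± 0.14 on the log2 scale (limma adjusted p = 0.0473), and the difference from heterozygous embryos was 0.37 ± 0.14 (limma adjusted p = 0.0963). The call against wild type lay close to the threshold and was lost in 12 of 16 alternative settings.

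Fkbp14 codes for FKBP22, a collagen chaperone mutated in a kyphoscoliotic form of Ehlers-Danlos syndrome. Its brighter probe read 1.76 and 1.89 in wild-type, 1.96 and 1.84 in heterozygous, and 2.34 and 2.17 in homozygous embryos. Its dimmer probe read −1.98 and −2.23, −2.06 and −1.73, and −1.67 and −0.84 in the same order. On both probes each homozygous embryo was above the other 4 embryos, but the homozygous embryos differed by 0.82 on the dimmer probe, the widest gap between replicates among the 12 probes. The brighter probe differed by 0.43 ± 0.14 between homozygous and wild-type embryos (limma adjusted p = 0.0582), and the dimmer probe by 0.85 ± 0.28 (limma adjusted p = 0.0689 over all probes). It passed in 2 of 16 alternative settings, at 0.29 with normexp and quantile scaling (limma adjusted p = 0.0428) and at 0.52 without homozygous embryo 2 (limma adjusted p = 0.0438), where the remaining homozygous embryo is assumed to vary like the other groups.

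Fkbp10 codes for FKBP65, a chaperone of type I collagen mutated in osteogenesis imperfecta. Its level was 3.22 and 3.31 in wild-type, 3.57 and 3.17 in heterozygous, and 3.41 and 3.12 in homozygous embryos. The 3 genotypes overlapped, and the widest gap was between the heterozygous embryos (0.4). The homozygous and wild-type means were equal to 2 decimals, with an SE of 0.18 and a 95% interval from −0.44 to 0.44 (limma adjusted p = 0.999).

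Fkbp2 codes for FKBP13, a small luminal isomerase, and read −0.17 and −0.24 in wild-type, −0.35 and −0.07 in heterozygous, and −0.38 and −0.09 in homozygous embryos. Fkbp7 codes for FKBP23, which binds the chaperone BiP, and read −0.11 and −0.11, 0.03 and 0.09, and −0.38 and 0.23 in that order. For Fkbp2 the genotypes overlapped, and for Fkbp7 the homozygous pair enclosed the other 4 embryos. Their homozygous to wild-type differences were −0.03 ± 0.16 (limma adjusted p = 0.9, 95% interval −0.43 to 0.36) and 0.03 ± 0.21 (limma adjusted p = 0.918, 95% interval −0.47 to 0.54). Changes of a size seen for Fkbp9 are inside the interval for Fkbp7, so the test does not show equal levels.

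**Figure D2:**
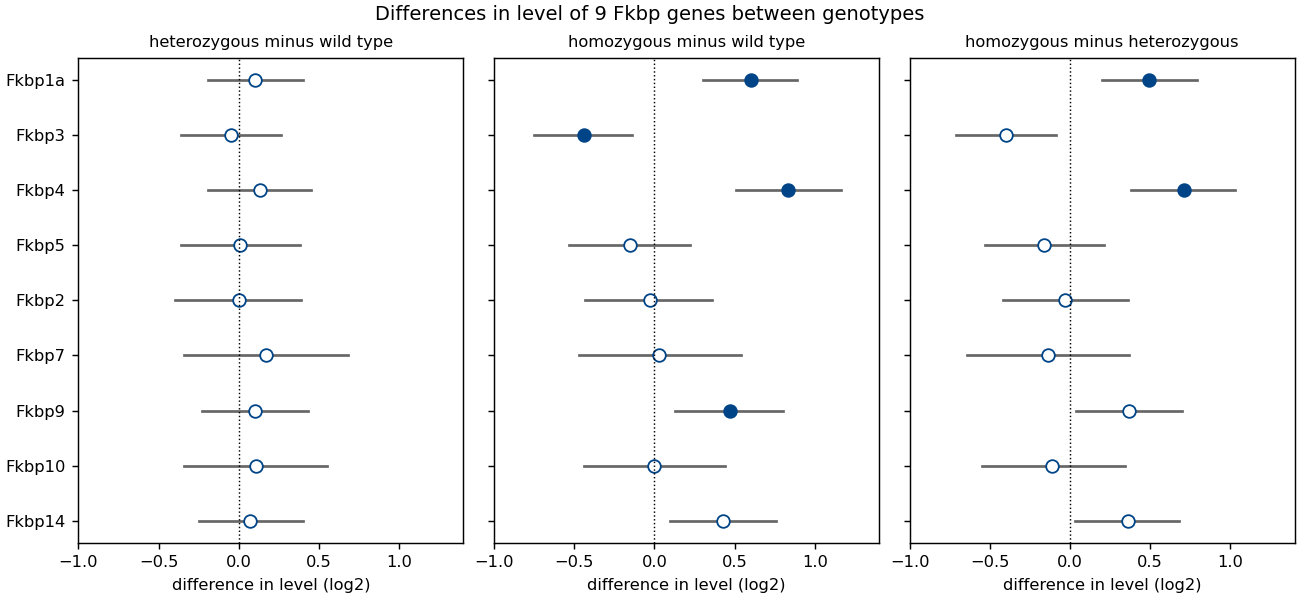
Differences in level (log2) of the 9 Fkbp genes other than Fkbp11 in the 3 comparisons, with 95% intervals from the limma fit as bars; a filled point passed at an adjusted p below 0.05 and an open point did not. Fkbp4 (0.83), Fkbp1a (0.6), Fkbp9 (0.47) and Fkbp3 (−0.44) are filled in homozygous against wild type, and all 9 points are open in heterozygous against wild type.

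Counted together, 3 of the 9 genes other than Fkbp11 were higher, 1 was lower and 5 did not pass in homozygous against wild-type embryos, while 29% of all 24570 genes tested passed in that comparison (14.3% higher and 14.7% lower). An unadjusted p below 0.05 was reached by 5 of the 9, and by 43.3% of all genes. Their median difference was 0.03, and that of all genes was 0.08. In homozygous against heterozygous embryos 2 of the 9 were higher, 0 lower and 7 did not pass, against 24% of all genes (10.6% higher and 13.4% lower), with medians of −0.03 and 0.07, and 5 of the 9 had an unadjusted p below 0.05 against 40.1% of all genes. Without wild-type embryo 1 or 2, 0 of the 9 passed against wild type, and the calls over all genes fell from 7122 (29%) to 2241 (9.12%) or 1950 (7.94%). Without heterozygous embryo 1 or 2, 0 of the 9 passed against heterozygous embryos, and the calls over all genes fell from 5898 to 1691 or 2492. Without wild-type embryo 1 or 2, or homozygous embryo 1, 1 of the 9 passed there, Fkbp4. These comparisons share the homozygous arrays and were used to choose the set. The other 9 genes lay between −0.44 and 0.83, where Fkbp11 was at −6.28.

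The levels of both homozygous embryos lay above both wild-type embryos for 4 of these 9 genes, below for 1 and overlapped for 4. Over all genes 69.6% did not overlap in that comparison, 39.4% above and 30.1% below. The homozygous and heterozygous pairs gave the same counts for the 9 genes, 4 above, 1 below and 4 overlapping, against 64% of all genes without overlap, 35.7% above and 28.3% below.

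Heterozygous embryos carried no Fkbp call. By limma 0 of 10 genes passed against wild type and 0 had an unadjusted p below 0.05, where 0% of 24569 genes passed and 2.25% (552) had an unadjusted p below 0.05. The differences of the 9 genes other than Fkbp11 ran from −0.05 for Fkbp3 to 0.17 for Fkbp7, at most 1.12-fold. The heterozygous pair lay above the wild-type pair for Fkbp1a, Fkbp4 and Fkbp7, 3 of 10 genes, and below for 0, where 26.8% of all genes did not overlap (14.8% above and 12% below). The median difference was 0.09 for the 10 genes and 0 for all genes.

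The replicates of a genotype differed by a median of 0.09 over the 12 probes in wild-type, 0.14 in heterozygous and 0.24 in homozygous embryos. The homozygous pair was thus the least alike. Some tissue markers also differed between the homozygous embryos, both on slide 2, and the others. Of 12 marker classes, the summed level of both homozygous embryos was above the other 4 embryos in 4 (liver, erythroid, neural progenitor, and B and plasma cells), below in 1 (trophoblast) and neither in 7. Over single genes 69.6% did not overlap between homozygous and wild-type embryos, and 64% between homozygous and heterozygous embryos. The share of all genes beyond all 4 other embryos was not computed, so these counts do not set the markers apart. The summed level of 4 liver markers was 6.99 and 6.95 in homozygous embryos against 6.23 to 6.49 in the others, and that of the 2 trophoblast markers that passed the filter, of 4 listed, was 4.09 and 2.99 against 5.34 to 5.85. Erythroid markers summed to 6.69 and 6.4 against 5.9 to 6.37, and neural progenitor markers to 3.37 and 2.99 against 2.69 to 2.96. Prl2c2 and Tpbpa, defining markers of trophoblast, did not pass the filter. A summed level follows its brightest markers, so single markers of a class can go another way. The part of these shifts in the Fkbp levels was not tested.

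Fkbp11 is known from plasma cells and pancreas, whose markers were at these levels. The summed level of 4 markers of B and plasma cells was −0.84 and −1 in wild-type, −0.8 and −0.96 in heterozygous, and −0.51 and −0.03 in homozygous embryos. Of these 4 markers, 3 or 4 were well above background in each wild-type and heterozygous embryo, 3 in homozygous embryo 1 and 2 in homozygous embryo 2. The summed level of the 3 of 4 pancreas markers that passed was −1.05 and −1.02, −0.67 and −0.73, and −0.84 and −0.8 in that order, and Pdx1 did not pass the filter. The part of these cells in the Fkbp11 level was not tested.

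Other genes with an FKBP domain gave 1 call among 5 tested of 7 listed in homozygous against wild-type embryos (20%, beside 29% of all genes). Fkbp15, which codes for a large protein that binds actin and endosomes, read 0.64 and 0.94 in wild-type, 0.92 and 0.72 in heterozygous, and −0.38 and −1.37 in homozygous embryos on its brighter probe. Both homozygous embryos were below the other 4, by −1.67 ± 0.32 against wild type (limma adjusted p = 0.0128). Its dimmer probe differed by −0.37 (limma adjusted p = 0.29 over all probes).

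For Fkbp1b, the close relative of Fkbp1a that binds cardiac ryanodine receptors, the brighter probe differed by −0.01 and the dimmer by −0.77 (limma adjusted p = 0.937 and 0.0168 over all probes). Fkbp8, an anti-apoptotic protein of mitochondria, differed by 0.23 (limma adjusted p = 0.356). Fkbpl differed by −0.1 (limma adjusted p = 0.549). Fkbp6 and Aipl1 did not pass the filter, each being well above background on 1 of 6 arrays. In this list too, probes of a gene did not always agree. The lists that follow are read at 1 probe per gene, the brightest kept, and other probes of those genes are not given.

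The cyclophilins and parvulins, the other families of prolyl isomerases, moved in both directions, with 2 of 19 higher and 5 lower in homozygous than in wild-type embryos and a median of −0.1. Ppia, cyclophilin A and the receptor of cyclosporin, rose by 1.19 ± 0.14 (limma adjusted p = 0.00299), and Ppid, the HSP90-binding cyclophilin, rose by 0.63 ± 0.16 (limma adjusted p = 0.0309). Those that fell were Ppil4 (−1.37), Nktr (−1.27), Ppil1 (−1.06), Cwc27 (−0.88) and Ppil2 (−0.68), of which Ppil1, Ppil2 and Cwc27 are known from the spliceosome. Against heterozygous embryos the counts were also 2 and 5. The share called, 36.8% in each comparison, stood beside 29% and 24% of all genes.

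The list of HSP90 genes and their partners holds the machinery that Fkbp4 and Fkbp5 join, and also Hsp90b1 of the endoplasmic reticulum. It had 5 members higher and 2 lower of 16 tested (17 listed) in homozygous against wild-type embryos, with a median of 0.23. Hsp90ab1, the constitutive cytosolic HSP90, read 5 and 4.86 in wild-type, 5.1 and 4.97 in heterozygous, and 6.22 and 6.17 in homozygous embryos. All homozygous values of this gene were above the others, by 1.26 ± 0.13 against wild type (limma adjusted p = 0.00198). Hsp90b1, its counterpart in the endoplasmic reticulum, rose by 1.2 (limma adjusted p = 0.00237), and Ptges3, the p23 co-chaperone, by 0.75 (limma adjusted p = 0.00768).

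Cdc37, which brings kinases to HSP90, rose by 0.69, and Ppid is a member here too. The co-chaperones Ahsa2 and Stip1 differed the other way, by −0.85 and −0.5 (limma adjusted p = 0.0141 and 0.0254). The counts against heterozygous embryos were 5 higher and 2 lower, with a median of 0.18. The share called was 43.8% in both comparisons, beside 29% and 24% of all genes.

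Among genes induced by glucocorticoids, the class that also holds Fkbp5, 4 of 11 tested (12 listed) were higher in homozygous than in wild-type embryos and 0 lower, 36.4% beside 29% of all genes, with a median of 0.41. They were Errfi1 (0.91), Mt2 (0.78), Dusp1 (0.61) and Per1 (0.61), with limma adjusted p from 0.00626 to 0.0281. Fkbp5, at −0.15, was not among those called. Against heterozygous embryos 5 of 11 were higher (45.5%, beside 24% of all genes), with Mt1 (0.68) added.

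The partners of FKBP12 gave 1 call among 14 tested (15 listed), 7.14% beside 29% of all genes, with a median of −0.02. Tgfbr1, the type I TGF-beta receptor, read 2.97 and 2.93 in wild-type, 2.94 and 2.84 in heterozygous, and 1.9 and 1.92 in homozygous embryos. The homozygous pair was below the other 4 embryos by more than any gap between replicates of this gene, and the difference from wild type was −1.04 ± 0.12 (limma adjusted p = 0.00277). Ppp3r1, the regulatory subunit of calcineurin, differed by 0.41 and Mtor, the kinase that rapamycin with FKBP12 inhibits, by −0.28, and neither passed (limma adjusted p = 0.0848 and 0.146). Ppp3cb, a catalytic subunit of calcineurin, differed by −0.4 (limma adjusted p = 0.141), fitted without wild-type embryo 1, where its spot was marked as an outlier.

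**Figure D3:**
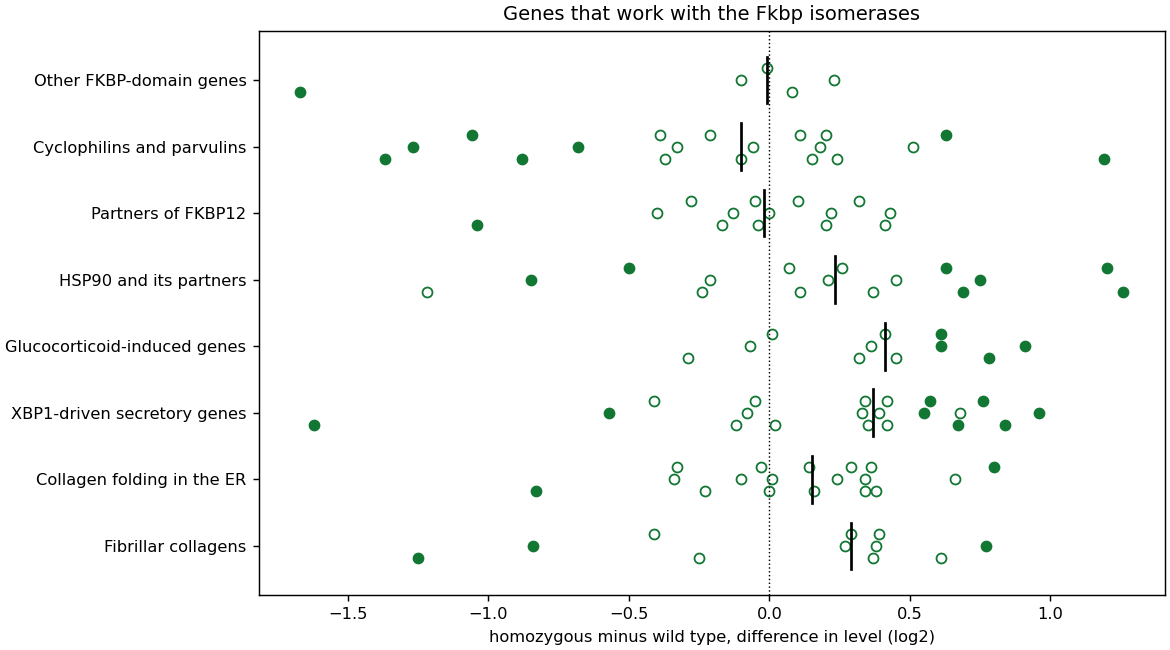
Difference in level (log2, homozygous minus wild type) of each tested gene of 8 lists of genes related to the Fkbp isomerases; filled points passed at a limma adjusted p below 0.05, open points did not, and vertical bars are list medians. The medians run from −0.1 for cyclophilins and parvulins to 0.41 for glucocorticoid-induced genes, beside 0.08 for all genes, and several lists hold filled points on both sides of 0.

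Genes driven by XBP1, the transcription factor of the secretory unfolded protein response and of plasma cells, had 6 higher and 2 lower of 20 tested in homozygous against wild-type embryos, with a median of 0.37. Pdia6, a disulfide isomerase, rose by 0.96 (limma adjusted p = 0.00349), Manf, a secreted stress factor, by 0.84, Ssr1, a translocon subunit, by 0.76, and Hspa5, which codes for BiP, by 0.67. Xbp1 itself read 3.42 and 3.59 in wild-type, 3.53 and 3.56 in heterozygous, and 4.13 and 4.02 in homozygous embryos, and rose by 0.57 (limma adjusted p = 0.023). Edem1 rose by 0.55.

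Sec61a1, the channel of the translocon, fell by 1.62 ± 0.32 on the log2 scale, with homozygous embryos at 3.49 and 2.49 (limma adjusted p = 0.0141), and Sec61b fell by 0.57. Fkbp11 was lower in the same embryos, and a link between it and this list was not tested. Against heterozygous embryos the counts were 6 higher and 3 lower of 20, with Sec24d (−0.52) added. The share called was 40% and 45%, beside 29% and 24% of all genes.

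Genes of collagen folding, the pathway of Fkbp10 and Fkbp14, gave 1 higher and 1 lower of 18 (11.1%, beside 29% of all genes), with a median of 0.15. Serpinh1, which codes for the collagen chaperone HSP47, rose by 0.8 ± 0.14 (limma adjusted p = 0.011). P3h4, a partner of the collagen lysyl hydroxylase complex and the next gene to Fkbp10, fell by 0.83 on the log2 scale (limma adjusted p = 0.0158). P4hb (0.66) and Crtap (0.38) missed the threshold (limma adjusted p = 0.0753 and 0.09).

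Of 11 fibrillar collagens, Col5a3 rose by 0.77, while Col11a2 fell by 1.25 and Col5a2 by 0.84 on the log2 scale (limma adjusted p = 0.033, 0.00518 and 0.00502), with a list median of 0.29. These calls were 27.3% of the list, beside 29% of all genes. Col3a1 was at 0.38 (limma adjusted p = 0.0698). In heterozygous against wild-type embryos 0 members of the 8 lists passed by limma, beside 0% of all genes. An unadjusted limma p below 0.05 was reached by 2, 1 fibrillar collagen and 1 partner of FKBP12, beside 2.25% of all genes.

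The 5 named genes whose profile over the 6 arrays, centred on its mean, lay nearest to that of Fkbp11 were Trpm1, Notch1, Chat, Slfn9 and Slc16a7. The root mean square distance was 0.89, 0.98, 0.98, 0.98 and 1.03 on the log2 scale. Pearson's r over the 6 arrays was 0.978 to 0.988, a description of points that share arrays, slides and genotypes. Trpm1, a cation channel of pigment cells and retina, read 1.87 and 1.86 in wild-type, 2.05 and 1.25 in heterozygous, and −2.28 and −3.34 in homozygous embryos.

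Notch1, the receptor of the Notch pathway, read 1.34 and 1.43, 1.61 and 0.74, and −2.65 and −3.52 in the same order. Chat, choline acetyltransferase, read 0.54 and 0.53, 0.76 and −0.19, and −3.33 and −4.77. These levels are of 1 probe per gene, the brightest kept. Trpm1, Notch1 and Slfn9 each had 2 kept probes, and the second is not given here. At that brightest probe all 5 genes stayed well above background on all 6 arrays, unlike Fkbp11. They were picked for their likeness to Fkbp11, so their homozygous levels are a description. Heterozygous embryo 2 was below heterozygous embryo 1 in all 5, whereas Fkbp11 read 0.79 and 0.83 in these embryos.

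**Figure D4:**
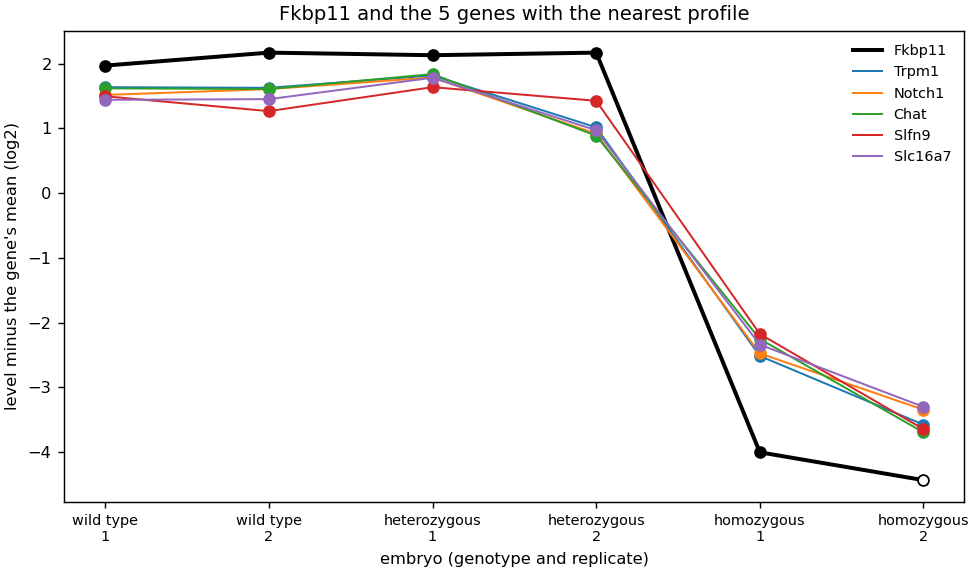
Level minus the gene's mean over the 6 arrays (log2) for Fkbp11 and the 5 named genes with the nearest profile, by embryo; lines only join the points of a gene, and the open point is not well above background. Fkbp11 falls furthest in both homozygous embryos, and the distances of the other genes from it are 0.89 to 1.03.

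The genes next to Fkbp11 and to Fkbp10 were looked at after the values were seen. Among the 9 tested neighbours of Fkbp11 on chromosome 15, of the 5 on each side, 3 were higher and 1 lower in homozygous than in wild-type embryos, from −1.32 for Adcy6 to 1.67 for Wnt1, where 29% of all genes were called. Ccdc65, directly beside Fkbp11 on one side, differed by 0.7 (limma adjusted p = 0.0222), and Arf3, on the other side, by 0.34 (limma adjusted p = 0.0989). Neither adjacent gene fell. Fkbp10 lies on chromosome 11, as Stat3 does, with 18 protein-coding genes between them. Of its 10 tested neighbours 2 were higher and 1 lower.

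The Stat3 level was 0.81 and 0.81 in wild-type, 1.07 and 0.82 in heterozygous, and 1.38 and 1.09 in homozygous embryos. The homozygous pair was above the other 4, and the difference from wild type, 0.43 ± 0.16, missed the threshold (limma adjusted p = 0.0886). The altered residues lie in the protein, and a Stat3 transcript level is no check of the genotype.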

How the data were processed

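Total RNA of 6 mouse embryos was measured on 1-colour arrays. Per the file headers and the submitters' processing notes, the deposited scanner output gives intensity values and spot flags from Agilent Feature Extraction 11.0.1.1, background-subtracted within each array. The authors also deposited log2 values with a median of 6.72 in every array, and their normalization method is not given in the sources used here. Groups and replicate numbers came from sample titles.

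Control spots and outlier flags (158 to 189 gene spots per array) were left out, spots of a probe were averaged, and the 75th percentile of the array was subtracted from log2 intensity. Accessions were named through a RefSeq table of GRCm38.p6, which named 27234 of 39429 probes (69.1%). A probe was kept where both arrays of some genotype measured it well above background, and the kept probe of highest mean stood for its gene. All 6 arrays were fitted in 1 genotype model with limma 3.58.1 in R 4.3.3 (3 residual and 3.33 prior degrees of freedom), with Benjamini-Hochberg adjustment over all genes and a threshold of 0.05. The fit was tested on simulated data. The number of arrays limits the precision.

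Every Fkbp member and other FKBP-domain gene is named, except that 1 result is not reported here, with called members of each list or, where fewer than 4 were called, those with the smallest p up to 4, the 5 genes nearest to Fkbp11, and Stat3. Members, lists and motifs were chosen with earlier results of these data known. Promoter windows are RefSeq's. Alternatives changed the background correction, scaling, filter, probe rule, arrays and replicate block.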

Additional observations from a re-analysis of the deposited data

How the results depend on the processing

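Of the 9 Fkbp genes other than Fkbp11, 4 were called in homozygous against wild-type embryos (29% of all genes). The count was 5 with normexp and quantile scaling (30% of all genes). It was 3 or 4 with the other scalings (28.8% to 35.9% of all genes), the authors' values (30.5%), the all-array filter (30.7%) and every probe tested. It was 2 with no filter on dim probes, 2 with the arrays of the 2 genotypes only and 2 with the replicate number as a block, and 0 to 4 when an embryo was left out, the lowest without wild-type embryo 1 or 2. Against heterozygous embryos 2 of the 9 were called (24% of all genes). That count was 4 with normexp and the 75th percentile, 1 with no filter on dim probes, 1 with the arrays of the 2 genotypes only, and 0 to 2 when an embryo was left out, the lowest without heterozygous embryo 1 or 2. A group left with 1 embryo is assumed there to vary like the others. The share of all genes called moved with the setting too. Against wild type it was 17.9% with no filter on dim probes. Against heterozygous embryos it was 46.1% with normexp and the 75th percentile, and 14.6% with no filter on dim probes. The count for heterozygous against wild-type embryos was 0 of 10 under every alternative run. Same-numbered embryos deviated together in heterozygous against homozygous embryos (correlation 0.25) but not in the other pairs of genotypes (0.0066 and −0.16), so the numbers were not taken to pair the samples. With the replicate block homozygous against heterozygous embryos gave 2 calls and heterozygous against wild type 0.

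Over 477 differences of single genes under alternatives, 434 were kept, 33 lost a call, 6 gained one and 0 reversed. A kept difference held its direction where called and its side of the threshold. Those of Fkbp11 in the homozygous comparisons were judged by direction and size, without a test. The kept ones include every heterozygous against wild-type difference, where no Fkbp gene was called to begin with. The calls of Fkbp3 and Fkbp9 against wild type were lost in 8 and 12 of 16 settings. Under normexp with its offset 4 differences of Fkbp11 moved, to −4.19 and −4.45 against wild type and to −4.27 and −4.52 against heterozygous embryos. Of the uncalled differences 32 changed sign. Under normexp with the 75th percentile, the all-gene median in homozygous against wild type went from 0.08 to 0.19 and the share of higher calls from 49.2% to 67.4%. Against heterozygous embryos that share went from 44.3% to 75.6% and the calls from 5898 to 11331. Calls over all genes fell from 7122 to 2241 and 1950 without wild-type embryo 1 or 2. Against heterozygous embryos they fell to 3253 with the arrays of the 2 genotypes only and to 1691 and 2492 without heterozygous embryo 1 or 2. In heterozygous against wild type, 3 and 6 genes of the array passed without wild-type embryo 1 or 2. The cause of these shifts was not tested, beyond the fewer arrays. A fit with slide as a block was not run, since the slide and the homozygous genotype cannot be told apart. Fkbp11 near background in homozygous embryos limits the size of its fall.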
